A study of Mus musculus with 28 samples.

Results

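Transitional granulosa cells with Kitl and Hsd3b1 transcripts were picked out of single-cell libraries of mouse ovary by a rule on detected genes, and 712 cells met it among 38274 cells that passed the filters and 14648 granulosa cells. Cells had at least 1000 detected genes and at most 20% mitochondrial UMIs (unique molecular identifiers, which count captured RNA molecules). Granulosa cells had at least 2 of Foxl2, Kitl, Inha and Gatm detected, less than 0.2% of UMIs from the stromal genes Dcn, Col1a1, Col1a2, Col3a1 and Mfap4, and less than 0.3% from the oocyte genes Zp3, Ooep, Gtsf1, Dppa3 and Dppa5a. A granulosa cell was counted as transitional when at least 3 of Col8a1, Akr1c19, Tmem171, Ramp1, Mybpc3 and Prox1 were detected and fewer than 4 of the division genes Top2a, Mki67, Cdk1, Ube2c, Birc5 and Cenpf were. These genes were chosen with the same libraries in view, so their levels are given as a description and carry no test.

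The ovaries came from wild-type C57BL/6J females and from females carrying the Chek2tm1b(EUCOMM)Hmgu allele on both chromosomes (Chek2-/-), a germline loss of checkpoint kinase 2 in every cell. For the single-cell libraries, ovaries of 4 females aged 7 days were pooled per library and collected 6 h after sham treatment (0 Gy) or whole-body irradiation (IR) with 0.5 Gy, which gave 1 library for each of the 4 conditions. For bulk RNA sequencing, 6 libraries per condition, each from the paired ovaries of 1 juvenile female, were made after the same treatments. Values in the 4 single-cell libraries are given in the order wild-type non-irradiated, wild-type irradiated, Chek2-/- non-irradiated and Chek2-/- irradiated. Levels are UMIs of a gene per 1000000 summed UMIs of all cells of a class in a library (CPM). Of genes known to differ between C57BL/6 substrains, Wdfy1, Fgfbp3 (78.6 and 91.3 against 47.7 and 56.1 CPM over all cells) and Ide (86.1 and 115 against 61.3 and 83.9 CPM) were higher in both Chek2-/- libraries, whereas Nnt was close in all 4 libraries (4.93 to 5.77 CPM). The Chek2 allele and the strain background cannot be told apart.

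Granulosa cells are the somatic cells that enclose the oocyte. In a primordial follicle they are few, flat and outside the cell cycle. When a follicle is activated they become cuboidal, divide and produce AMH and the inhibin subunits, and a follicle in between, with both flat and cuboidal cells, is called transitional. Kitl encodes the ligand through which granulosa cells stimulate the receptor KIT and PI3K signalling in the oocyte, and Hsd3b1 encodes a 3-beta-hydroxysteroid dehydrogenase that converts pregnenolone to progesterone. The libraries hold dissociated cells, so the kind of follicle a cell came from was not measured.

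The 4 libraries held 9666, 10345, 9091 and 9172 cells after filtering, and the transitional cells numbered 193, 207, 160 and 152. Their median depths were 17659, 17806, 18947 and 21112 UMIs. The remaining non-dividing granulosa cells were split by Amh into 6468 cells with at least 1 Amh UMI (Amh-positive) and 3371 cells with none (Amh-negative). Median depths were 19628 to 21297 UMIs in the Amh-positive and 14046 to 15412 in the Amh-negative cells. Scrublet marked 1, 2, 3 and 1 transitional cells as doublets (0.518 to 1.875%). It marked 0.666 to 1.19% of Amh-positive, 0.546 to 1.36% of Amh-negative and 4.02 to 5.47% of all cells. From 30 to 73 barcodes were shared by any pair of libraries. Chek2 was at 10.8 and 10.5 CPM over all cells of the wild-type libraries and at 3.58 and 3.79 CPM in the Chek2-/- libraries. Transitional cells had 25, 28, 3 and 14 Chek2 UMIs. The counted 3' ends may lie outside the deleted part of the allele, so UMIs in Chek2-/- cells do not show intact transcripts. The strain gene Wdfy1 was at 11.9, 12.1, 39.4 and 41.8 CPM in the transitional cells.

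The genes that name the population were high in it in every library. Kitl was at 746, 842, 709 and 660 CPM in transitional cells, at 181 to 227 CPM in Amh-positive cells and at 203 to 222 CPM in Amh-negative cells. Hsd3b1 was at 1467, 1511, 1606 and 1505 CPM, against 583 to 633 and 150 to 196 CPM in the other classes. For neither gene did the transitional cells overlap with another class, and the ratios to Amh-positive cells were 3.35-fold for Kitl and 2.33-fold for Hsd3b1. Kitl had at least 1 UMI in 98.8 to 100% of transitional cells. With every cell thinned to 5000 UMIs, Kitl was detected in 88.6 to 92.7% of transitional cells and in 23.8 to 28.7% of endothelial-type cells, which can express it too (median depths before thinning 11150 to 23656 UMIs, and 53.1 to 73.7% of cells with a UMI). Foxl2 and Inha, granulosa transcripts that endothelial cells should lack, were detected in 17.83 to 19.3% and 12.3 to 17.83% of the same thinned endothelial-type cells.

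Of the 6 genes of the rule, Col8a1 (a short-chain collagen), Ramp1 (a partner of the calcitonin receptor-like receptor) and Akr1c19 (an aldo-keto reductase) were the most widely detected in 3 of the 4 libraries, while Tmem171 (65.1%) passed Akr1c19 (61.8%) in irradiated Chek2-/- cells. Col8a1 was at 140, 191, 145 and 159 CPM, against 4.0 to 6.40 CPM in Amh-positive and 4.12 to 8.32 CPM in Amh-negative cells. Ramp1 was at 119, 165, 114 and 108 CPM and Akr1c19 at 77.1, 101, 97.3 and 72.6 CPM. All 3 were far above both other classes, as the rule requires. Prox1, a homeobox transcription factor best known from lymphatic endothelium, was at 40.6, 41.4, 36.5 and 30.9 CPM. Of 6 other lymphatic markers Lyve1 was at 0 in every library's transitional cells. The sum of the 6 was 215 to 316 CPM in transitional and 182 to 234 CPM in Amh-positive cells. Prox1 was detected in 41.4 to 53.6% of them, in 2.3 to 3.7% of Amh-positive cells and in 13.0 to 29.8% of endothelial-type cells. Tmem171 was at 39.4, 39.3, 57.3 and 58.2 CPM and Mybpc3, which encodes a cardiac myosin-binding protein, at 27.1, 23.1, 40.5 and 26.6 CPM. Akr1c19 belongs to a family of similar neighbouring genes, as do Akr1c18, Akr1c14 and Akr1c13, and reads shared between such copies make their separate levels uncertain.

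Transitional cells carried granulosa transcripts, Amh among them. Foxl2, which maintains granulosa identity, was at 440, 444, 469 and 424 CPM, against 349 to 400 CPM in Amh-positive cells. Amh was at 221, 188, 361 and 391 CPM, against 373, 316, 543 and 640 CPM in Amh-positive cells, and was below them in each of the 4 libraries, an order that the split in part fixes, since a cell needed an Amh UMI to be Amh-positive. Amh was detected in 73.6, 74.4, 77.5 and 87.5% of transitional cells. The cells were thus mostly Amh-positive themselves, and the name transitional rests on their Kitl and Hsd3b1. The quiescence-associated genes Junb (359, 495, 283 and 484 CPM) and Btg2 (576, 843, 459 and 626 CPM) overlapped with both other classes and did not pass the 2-fold threshold against either.

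**Figure D1:**
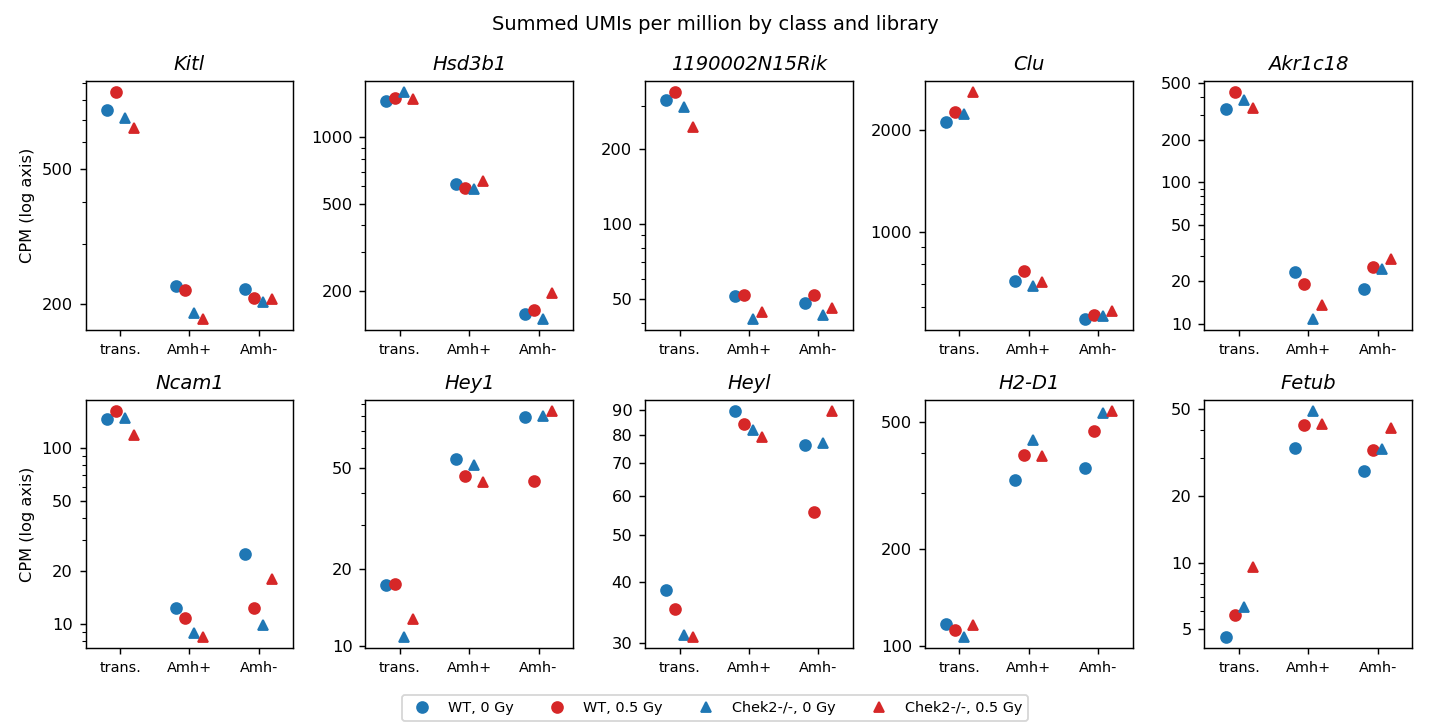
Levels of Kitl, Hsd3b1 and 8 other genes by class of granulosa cell (transitional, Amh-positive and Amh-negative), with 1 point per single-cell library, coloured by dose and shaped by genotype, and CPM on a log axis that does not start at 0. The 4 points of transitional cells lie above both other classes for Kitl (660 to 842 CPM) and Akr1c18 (327 to 432 CPM) and below both for H2-D1 (107 to 117 CPM) and Hey1 (10.8 to 17.5 CPM).

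The rule draws a line through a continuum of cells. Among non-dividing granulosa cells 59.5% had none of the 6 genes detected, 25.2% had 1 and 8.62% had 2, and the 712 transitional cells were 391 cells with 3, 195 with 4, 97 with 5 and 29 with 6 of the genes. Just inside the limit, cells with 3 genes held Kitl at 592 and Hsd3b1 at 1231 CPM, with Amh at 346 CPM. Just outside it, the 909 cells with 2 genes held Kitl at 330 and Hsd3b1 at 773 CPM, with Amh at 402 CPM. With all 6 genes detected Kitl was at 1098 and Hsd3b1 at 1907 CPM, at a median depth of 30012 UMIs, compared with 17671 UMIs for cells with 3 genes. When every cell was thinned to 5000 UMIs before the rule was applied, it found 53, 59, 44 and 48 cells, of which 48, 54, 43 and 41 were among the 712.

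To describe what these cells express beyond the rule, UMIs were summed per class and library, and transitional cells were compared with the other granulosa cells over the 4 libraries. The test was edgeR's quasi-likelihood F test, and p-values were adjusted after Benjamini and Hochberg over 13981 genes. The threshold was an adjusted p of at most 0.05 and at least a 2-fold difference. Against Amh-positive cells 534 genes were higher (3.82% of those tested) and 387 lower (2.77%). Against Amh-negative cells 546 were higher (3.91%) and 1437 lower (10.3%). The classes come from the same libraries and cells were chosen by gene detection, so a p says only how regular a difference was over these libraries. The 4 libraries, which differ in genotype and treatment, were the only replication. With the library as a block, the p-values rest on how the class differences vary over libraries, not on the spread of levels between libraries.

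1190002N15Rik ranked first by adjusted p among the higher genes against both classes, tied with Clu against Amh-negative cells, and is a gene of poorly known function. It was at 315, 339, 295 and 246 CPM in transitional cells and at 41.6 to 51.8 CPM in Amh-positive cells (log2 difference 2.55 ± 0.06 SE, adjusted p = 1.7e-11), with no overlap. Clu, which encodes the secreted chaperone clusterin, was at 2106, 2262, 2231 and 2580 CPM against 691 to 763 CPM (2.94-fold, adjusted p = 1.4e-10). Myl9, a regulatory light chain of smooth muscle myosin, was at 581, 579, 615 and 492 CPM against 32.8 to 52.7 CPM, a 12.8-fold difference. No tested perivascular marker was higher in transitional cells. The summed level of 10 such markers was 58.0, 82.6, 45.1 and 35.1 CPM, against 53.7 to 58.8 CPM in Amh-positive cells, and its part in the Myl9 level was not tested.

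Ncam1 and Robo2, which act in cell adhesion and guidance, were among the 12 higher genes of smallest adjusted p. Ncam1, a neural cell adhesion molecule, was at 145, 162, 147 and 118 CPM in transitional cells, against 12.4, 10.8, 8.87 and 8.40 CPM in Amh-positive cells (13.2-fold, log2 difference 3.72 ± 0.16 SE, adjusted p = 4.0e-09). Robo2, a receptor for Slit guidance cues, was at 41.5, 40.2, 41.9 and 40.7 CPM against 6.25 to 8.05 CPM (5.44-fold). Both kept apart from every library of the other class. Ltbp1, which anchors latent TGF-beta in the matrix, was at 65.6, 69.0, 64.5 and 72.1 CPM against 16.8 to 18.6 CPM (3.57-fold). The LIM domain gene Lmcd1 (8.40-fold), the actin-linked Lrrfip1 (3.77-fold), the centrosomal Tacc1 (3.47-fold), the neuronal polarity gene Shtn1 (3.29-fold) and the matrix gene Thbs1 (2.34-fold) completed these 12 genes with Akr1c18. Thbs1 was at 449 to 485 CPM and its difference fell under 2-fold (log2 0.95) when cells with 2 of the 6 genes were included.

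Akr1c18, the 20-alpha-hydroxysteroid dehydrogenase that inactivates progesterone, had the largest ratio of the 12 genes. It was at 327, 432, 384 and 337 CPM in transitional cells, against 23.3, 19.1, 10.9 and 13.6 CPM in Amh-positive cells (20.7-fold, adjusted p = 4.0e-09) and 17.5 to 28.8 CPM in Amh-negative cells (15.0-fold, adjusted p = 3.8e-09). It was detected in 19.7, 31.8, 37.1 and 34.5% of cells with 3, 4, 5 and 6 of the 6 genes, whose median depths were 17671, 17659, 27199 and 30012 UMIs. The part of depth, and of reads shared with Akr1c19 of the rule, was not tested.

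Among 21 tested genes of steroid synthesis and metabolism, 5 were higher and 1 lower in transitional than in Amh-positive cells (median log2 difference 0.28, against -0.01 over all genes). Hsd17b7, a reductase of estrone and of a sterol intermediate, was at 67.7, 80.9, 79.6 and 57.4 CPM against 12.9 to 15.5 CPM (4.64-fold, adjusted p = 1.5e-07). Cyp19a1, the aromatase that makes oestrogen, was at 32.1, 23.5, 25.4 and 12.8 CPM against 7.12 to 9.24 CPM (2.61-fold, adjusted p = 4.7e-06). Neither overlapped. Cyp11a1, the side-chain cleavage enzyme at the head of steroid synthesis, was at 29.6, 23.3, 21.7 and 29.0 CPM against 2.38, 1.26, 8.67 and 1.81 CPM (log2 difference 2.99 ± 0.63 SE, adjusted p = 0.0022). These UMIs came mostly from 1 cluster of 65 cells within the population (cluster 3 below), where Cyp11a1 was at 304 CPM and detected in 38.5% of cells, against 0.886 to 16.1 CPM in the other 7 clusters. Amh-negative cells reached 47.3 CPM of Cyp11a1 in 1 library, and the difference from them did not pass (adjusted p = 0.21). Lhcgr, the receptor for luteinizing hormone, was low everywhere, at 4.82, 6.18, 4.56 and 1.86 CPM, but above the 0.693 to 1.01 CPM of Amh-positive cells (4.85-fold, adjusted p = 2.0e-04), a call that was lost in thinned cells. Star, which carries cholesterol into mitochondria, overlapped between the classes (6.91 to 12.1 against 3.39 to 7.74 CPM). The adrenal enzymes Cyp21a1, Cyp11b1 and Cyp11b2 and the theca hormone Insl3 were at 0 in transitional cells of all libraries. The same 3 enzymes were at 0 in Amh-negative cells, and Cyp11b1 and Cyp11b2 in Amh-positive cells, so these zeros do not mark transitional cells. Mrap, the only adrenal marker tested, was higher than in Amh-positive cells (log2 difference 1.31). Theca markers summed to 344 to 441 CPM in transitional and 366 to 525 CPM in Amh-positive cells. Hsd11b2 was the lower gene (-1.31), with levels that overlapped, and lost its call when cells with 2 of the 6 genes were included (-0.68).

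Against Amh-negative cells 7 genes of this list were higher and 1 was lower (median log2 difference 0.61, against 0.01 over all genes). Hsd17b1, which makes oestradiol from oestrone, was at 252, 271, 340 and 349 CPM against 64.1 to 70.1 CPM (4.32-fold, adjusted p = 5.4e-11). Its level in Amh-positive cells was 197 to 262 CPM, which overlapped. Cyp19a1 was 11.5-fold higher than in Amh-negative cells, where it was at 1.53 to 3.02 CPM. The progesterone-reducing Akr1c14 was at 292, 331, 360 and 301 CPM, against 153 to 161 CPM in Amh-positive and 90.1 to 125 CPM in Amh-negative cells (2.88-fold). Stard4, a sterol carrier, was the lower gene, and fell under 2-fold without the irradiated wild-type library (log2 -0.93) and in thinned cells (-0.90).

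Genes of growing-follicle granulosa cells passed more often against Amh-negative than against Amh-positive cells at full depth. Over all genes 3.82% were higher and 2.77% lower than in Amh-positive cells, and 3.91% and 10.3% than in Amh-negative cells. Of 26 tested genes of the list, 2 were higher and 1 lower than in Amh-positive cells (median -0.06), whereas 13 were higher and none lower than in Amh-negative cells (median 0.95), although 10 of these 13 calls were lost in cells thinned to 5000 UMIs. Inhbb, the beta-B subunit of activin and inhibin, was at 288, 227, 303 and 299 CPM, against 230 to 313 CPM in Amh-positive and 41.8 to 55.3 CPM in Amh-negative cells (5.73-fold, adjusted p = 1.3e-11). Fshr, the receptor for follicle-stimulating hormone, was at 6.42, 3.50, 2.57 and 3.72 CPM against 0.266 to 0.384 CPM in Amh-negative cells (adjusted p = 9.5e-07). Both overlapped with Amh-positive cells, and the difference of Inhbb from Amh-negative cells was just under 2-fold in thinned cells (log2 0.98), where the call of Fshr was lost as well (adjusted p = 0.2425 by the same test). Igfbp5, an insulin-like growth factor binding protein, was one of the higher genes, at 264, 249, 439 and 423 CPM against 71.8 to 120 CPM in Amh-positive cells (3.25-fold), without overlap. Ihh, a hedgehog ligand, was the lower gene (-1.39) and its levels overlapped, with a log2 difference of -0.86 when cells with 2 of the 6 genes were included.

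Of 32 tested transcription factors of ovarian somatic cells, 6 were higher and 2 lower than in Amh-positive cells (median 0.21). Maf was at 42.2, 61.4, 65.6 and 66.0 CPM against 9.27 to 13.7 CPM (4.89-fold, adjusted p = 1.9e-07), and Id2, an inhibitor of helix-loop-helix factors, at 23.6, 37.7, 44.8 and 55.3 CPM against 8.45 to 12.8 CPM (3.32-fold). Sox9, a factor of testis development that is kept low in granulosa cells, was at 14.4, 22.9, 12.5 and 17.3 CPM against 3.81 to 6.76 CPM (2.84-fold, adjusted p = 1.2e-05). None of these 3 overlapped, and each was kept under every alternative tried. The calls of Nr2f1, Id4, Id1 and Irx3 against Amh-positive cells were each lost under at least 1 alternative, and Id4 turned in sign in thinned cells. Maf and Id2 were at the level of Amh-negative cells (log2 differences -0.17 and -0.08). Runx1, a factor of the supporting lineage, was at 189, 204, 170 and 136 CPM against 61.4 to 84.6 CPM (2.21-fold), and its difference fell under 2-fold (log2 0.83) with cells of 2 genes included. Nr5a2, needed for ovulation, overlapped with Amh-positive cells at 188 to 270 CPM and was 3.58-fold above Amh-negative cells, or under 2-fold in thinned cells (log2 0.94). Against Amh-negative cells 6 factors were lower and Nr5a2 alone was higher (median -0.12). They included Irx3 (log2 difference -3.06), Lhx9 (-2.76) and Id1 (-1.90), which are also expressed in the surface epithelium and other cells of the mixed Amh-negative class.

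**Figure D2:**
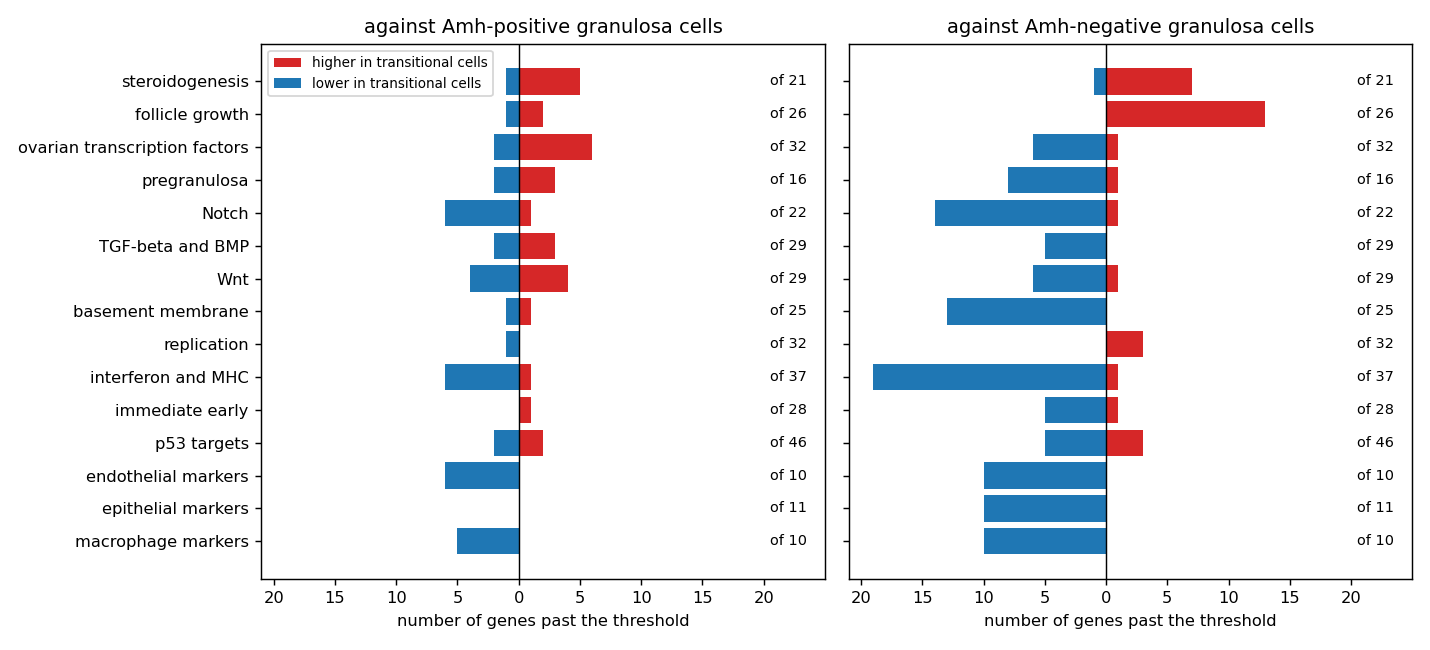
Genes of each list that were higher or lower in transitional cells than in Amh-positive and in Amh-negative cells, as counts of genes past the threshold on the horizontal axis, with bars to the right for higher and to the left for lower genes and the number tested beside each list. There were, for example, 5 higher and 1 lower steroid genes and 1 higher and 6 lower Notch genes against Amh-positive cells.

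The Amh-negative class is a mixture, which bears on each comparison with it. The summed level of 11 epithelial markers was 1375 to 1767 CPM in it over the libraries, against 361 to 529 CPM in transitional cells. For 10 endothelial markers the sums were 488 to 879 against 22.5 to 71.0 CPM, and for 10 macrophage markers 163 to 302 against 6.19 to 11.5 CPM. Of these lists 10, 10 and 10 markers were lower in transitional cells. Their part in the differences from Amh-negative cells was not tested. The erythroid sum varied from 85.4 to 1454 CPM between libraries of transitional cells, while the stromal sum was 109 to 134 CPM in Amh-negative and 148 to 197 CPM in transitional cells.

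Several transcriptional targets of Notch were lower in transitional than in Amh-positive cells. Notch receptors on granulosa cells are cut when they meet a Jagged or Delta ligand on a neighbour, and the released fragment joins RBPJ on DNA and switches on the Hes and Hey repressors and Nrarp, a feedback inhibitor. Of 22 genes, 6 were lower and 1, the ligand gene Dll1, was higher (median -0.19). Of the 6, Heyl, Hey1, Hey2, Hes5 and Nrarp are such targets, and the ligand gene Dll4 was below 2 CPM in both classes. Hey1 was at 17.4, 17.5, 10.8 and 12.8 CPM in transitional and at 54.4, 46.5, 51.5 and 44.4 CPM in Amh-positive cells (log2 difference -1.82 ± 0.19 SE, adjusted p = 7.2e-06). Heyl was at 38.5, 35.2, 31.1 and 30.9 CPM against 79.0 to 89.5 CPM (-1.40, adjusted p = 8.3e-07). Hey2 was at 11.9, 9.88, 13.7 and 21.8 CPM against 28.9 to 45.1 CPM (-1.56, adjusted p = 4.3e-05). For none of these 3 did a transitional library reach an Amh-positive one, although 1 cluster of 105 transitional cells (cluster 4 below) held Heyl at 89.6 and Hey2 at 38.4 CPM, near the Amh-positive levels.

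Hes5 was at 0.459, 0.206, 0 and 0.266 CPM against 1.49 to 2.68 CPM, and Nrarp at 2.06, 2.68, 2.28 and 3.19 CPM against 7.60 to 9.66 CPM (-1.80, adjusted p = 0.0012). The levels did not overlap, but Hes5 rests on few UMIs and lost its call in thinned cells by adjusted p, at a log2 difference of -6.44. Hey2 (-0.94), Heyl (-0.83) and Nrarp (-0.66) fell under 2-fold when cells with 2 of the 6 genes were included, whereas Hey1 passed under every alternative tried. Hes1, the most abundant target, was at 128, 145, 121 and 125 CPM against 168 to 213 CPM, a log2 difference of -0.61 that did not reach the fold threshold. The receptors Notch1 and Notch2 overlapped between the classes (-0.12 and 0.04). The endothelial markers, cells in which Hey genes are also expressed, summed to 22.5, 25.1, 24.8 and 71.0 CPM in transitional and 57.3 to 89.8 CPM in Amh-positive cells, and 6 of 10 were lower. Their part in the Notch values was not tested.

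The start regions of the lower targets are shown because these genes are usually taken as direct readouts of RBPJ. Of Hes5, Hey1, Hey2, Heyl and Nrarp, 3 were matched in the RefSeq table of promoters on GRCm38.p6, which covers 250 bases before to 50 after the start of each gene. The letters GTGGGAA and their reverse complement TTCCCAC, the core of the RBPJ motif, were searched on both strands and are in capitals. They occurred in 2097 of 32851 promoters (6.38%). The Hes5 window (chr4:154960673-154960972, plus strand) held 2 matches, the Hey2 window (chr10:30842734-30843033, minus strand) 2 and the Nrarp window (chr2:25180508-25180807, plus strand) 0, which says only what letters these windows hold.
Hes5: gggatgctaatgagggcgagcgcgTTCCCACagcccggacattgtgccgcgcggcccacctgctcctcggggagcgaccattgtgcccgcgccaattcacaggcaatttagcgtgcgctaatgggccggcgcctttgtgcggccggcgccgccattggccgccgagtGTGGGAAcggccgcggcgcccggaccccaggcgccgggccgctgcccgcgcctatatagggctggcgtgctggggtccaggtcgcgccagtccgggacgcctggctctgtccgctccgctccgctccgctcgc
Hey2: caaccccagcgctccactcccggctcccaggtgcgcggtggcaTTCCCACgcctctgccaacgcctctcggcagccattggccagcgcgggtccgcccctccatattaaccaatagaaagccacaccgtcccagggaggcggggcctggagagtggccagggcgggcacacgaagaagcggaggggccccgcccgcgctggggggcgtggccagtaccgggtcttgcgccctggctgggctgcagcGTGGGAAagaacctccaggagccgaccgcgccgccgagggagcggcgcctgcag
Nrarp: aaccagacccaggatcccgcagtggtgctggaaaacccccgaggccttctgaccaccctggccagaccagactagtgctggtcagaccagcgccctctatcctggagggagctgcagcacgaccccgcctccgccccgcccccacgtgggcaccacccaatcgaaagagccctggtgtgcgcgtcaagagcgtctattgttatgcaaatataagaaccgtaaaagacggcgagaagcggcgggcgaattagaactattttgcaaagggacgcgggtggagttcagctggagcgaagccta

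Against Amh-negative cells 14 Notch genes were lower and Dll3 was higher (median -1.43), beside the endothelial sums given above. In thinned cells 9 of the 14 of these calls that could be recomputed were lost, among them those of Dll3, Jag1, Jag2 and Notch1. Dll3 (0.60) and Notch4 (-0.57) fell under 2-fold there. The others, such as Jag1 (-1.95), Jag2 (-1.39) and Notch1 (-1.26), failed by adjusted p alone. Hey1 differed by -2.27, Heyl by -1.15 (-0.56 with cells of 2 genes included) and Nrarp by -3.79 on the log2 scale. Hey2 differed by -1.70 and overlapped, since the Amh-negative library of irradiated wild-type ovaries held 19.3 CPM.

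The named MHC class I genes H2-D1, H2-K1, H2-Q4 and H2-Q7 and B2m were lower in transitional cells than in both other classes, although no list of class I genes was tested. H2-D1, a classical class I heavy chain, was at 117, 112, 107 and 116 CPM, against 330, 395, 438 and 391 CPM in Amh-positive cells (3.68-fold lower, log2 difference -1.88 ± 0.09 SE, adjusted p = 9.9e-09) and 359 to 540 CPM in Amh-negative cells. H2-K1 was at 182, 165, 133 and 147 CPM against 429 to 553 CPM (-1.74, adjusted p = 1.7e-07). Both were separate in every library. B2m, the light chain shared by all class I molecules, was at 165, 140, 156 and 158 CPM against 326 to 391 CPM (-1.30). H2-Q4 (-1.78) and H2-Q7 (-2.04) were also among the 12 lower genes of smallest adjusted p. The H2 genes are close copies and reads may be assigned among them, which was not tested. The 4 were named here because they were lower.

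Over the list of 37 interferon-stimulated and antigen-presentation genes, 6 were lower and 1 higher than in Amh-positive cells, with a median of -0.06 that did not follow the class I genes. The 6 were H2-D1, B2m, H2-K1, the immunoproteasome subunits Psmb9 (-1.47) and Psmb8 (-1.10), and Usp18. B2m (-0.76, and -0.61 against Amh-negative cells), Psmb9 (-0.81) and Psmb8 (-0.78) fell under 2-fold with cells of 2 genes included, and Psmb8 (-0.99) also without the irradiated Chek2-/- library. The macrophage sum was 6.19 to 11.5 CPM in transitional and 5.92 to 44.9 CPM in Amh-positive cells, and its part was not tested. The higher gene was Ifitm1, a membrane protein gene at 465, 503, 438 and 348 CPM against 86.8 to 105.2 CPM (4.16-fold, adjusted p = 4.4e-09). Against Amh-negative cells 19 genes were lower and Ifitm1 was higher (median -1.02). Of these 20 calls 9 were lost without the library block, among them Isg15, Ifit1 and Usp18, and 8 of 16 in thinned cells. Without the block Isg15 (-2.87), Ifit1 (-2.29) and Usp18 (-1.41) stayed beyond 2-fold and failed by adjusted p, as did the others except Oasl2 (-0.95).

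Among other genes lower than in Amh-positive cells, Nrn1 (neuritin) was at 173, 170, 145 and 127 CPM against 397 to 451 CPM (-1.61), and Dpysl5, a cytoskeletal regulator of neurons, at 25, 20.2, 20 and 20.7 CPM against 61.0 to 72.8 CPM (-1.71). Fetub, the inhibitor of the protease ovastacin, was at 4.59, 5.77, 6.27 and 9.57 CPM against 33.1, 42.3, 49.0 and 42.8 CPM (6.96-fold lower, adjusted p = 5.7e-09). The 3 genes did not overlap between classes. Ptges, the prostaglandin E synthase (-1.72), Mycl (-1.51), Cited1 (-1.39), Derl3 (-1.38) and Tmprss13 (-2.04) were lower too. Fgfbp3 (-2.06) is one of the genes whose level differs between the C57BL/6J and C57BL/6N strains and was at 40.6 and 28.2 CPM in wild-type and 41.1 and 50.8 CPM in Chek2-/- transitional cells. With cells of 2 genes included Nrn1 (-0.97), Mycl (-0.86), Ptges (-0.99), Cited1 (-0.88) and Derl3 (-0.84) were under 2-fold.

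Signalling lists were mixed in direction against Amh-positive cells. Of 24 genes of KIT and PI3K signalling none passed in either direction by edgeR's quasi-likelihood test at 2-fold. By adjusted p alone 7 were higher and 4 lower (median 0.12), beside 2448 and 2573 of 13981 over all genes. Of 29 TGF-beta and BMP genes, 3 were higher (Smad6, Tgfb2 and Bmp6) and 2 lower (Chrdl1 and Nog). Of 29 Wnt genes 4 were higher and 4 lower, led by the secreted inhibitor Sfrp4 at 24.8, 35.6, 31.4 and 38.03 CPM against 5.68 to 11.3 CPM (3.63-fold, adjusted p = 7.8e-06). Bmp6 fell under 2-fold without the non-irradiated wild-type library (0.88), and Chrdl1 with cells of 2 genes included (-0.78). Of the other Wnt genes, Wnt5a, Wnt9a and Sfrp2 were higher and Lgr6, Dkk2, Lgr5 and Lef1 lower, each below 10 CPM in both classes.

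Of 25 basement membrane genes Lama5 was higher (1.05), with overlap and a log2 difference of -0.40 in thinned cells, and Lama4 was lower (-1.26). Of 14 hedgehog genes Gas1 was higher (1.12) and Ihh lower. Among 28 immediate early genes Fosb was higher, at 493, 408, 368 and 291 CPM against 91.5 to 168 CPM (2.84-fold, adjusted p = 1.5e-07), with a median of 0.31 over the list. Among 30 apoptosis genes the BH3-only gene Bmf was higher, and among 46 p53 targets Ddit4 and Ak1 were higher and Pvt1 and Gdf15 lower. Ddit4 was under 2-fold without the non-irradiated wild-type library (0.95), as was Ak1 without the non-irradiated Chek2-/- library (0.86). The calls of Lama4, Gas1, Bmf, Pvt1, Gdf15, Smad6, Nog, Usp18 and Dll4 and, of the Wnt genes, of all but Sfrp4 and Sfrp2 were each lost under at least 1 alternative. Of 23 cholesterol synthesis genes Hsd17b7 was higher and none was lower.

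Pregranulosa genes, which mark the flat cells of primordial follicles, and cell cycle genes were mixed. Of 16 pregranulosa genes 3 were higher and 2 lower than in Amh-positive cells (median -0.10). The cyclin-dependent kinase inhibitor Cdkn1c was at 35.8, 45.7, 61.6 and 38.6 CPM against 12.2 to 19.2 CPM (2.86-fold), close to the 38.1 to 57.6 CPM of Amh-negative cells. Igfbp2 was lower (-1.33) at 70.9, 91.8, 52.8 and 72.9 CPM against 142 to 186 CPM, with a value of -0.62 when cells of 2 genes were included. Lgr5, a stem cell and epithelial receptor, was at 1.61, 3.91, 2.57 and 0 CPM, against 36.7 to 49.8 CPM in Amh-negative cells (log2 difference -4.42, adjusted p = 3.5e-07). Of 32 replication genes 24 were lower than in Amh-positive cells by adjusted p alone, and 1, Cdc6, by 2-fold as well (median -0.49), although cells with at least 4 of the 6 division genes had been removed from both. Over all 13981 genes 2573 were lower and 2448 higher than in Amh-positive cells by adjusted p alone. Cdc6 fell under 2-fold with cells of 2 genes included (-0.43), without the irradiated wild-type library (-0.99) and without the non-irradiated Chek2-/- library (-0.94). Summed replication genes were at 916 to 1268 CPM in transitional, 1027 to 1503 CPM in Amh-positive and 626 to 722 CPM in Amh-negative cells. Against Amh-negative cells 28 of the 32 were higher by adjusted p alone and none was lower (median 0.75), beside 3113 higher and 3231 lower over all genes. By 2-fold as well 3 were higher (Ung, Mcm5 and Cdc45), calls that were lost in thinned cells. Of 26 mitosis genes none passed by edgeR's quasi-likelihood test at 2-fold. By adjusted p alone 3 were lower than in Amh-positive cells, a smaller share than the 2573 of 13981 over all genes.

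Of markers of other cell types, Pax8 and Cdh16 were 2 of 4 tested rete ovarii markers that were higher than in Amh-positive cells. Pax8, a transcription factor of the rete and the oviduct lineage, was at 8.26, 13.4, 5.13 and 4.79 CPM against 0.214 to 1.26 CPM (adjusted p = 1.1e-05), and Cdh16 at 1.83, 5.97, 2.85 and 3.72 CPM against 0.0305 to 0.475 CPM. The summed rete markers were 13.0 to 30.9 CPM in transitional and 9.24 to 27.5 CPM in Amh-positive cells. Stromal Col5a2 (2.35-fold) and Postn (2.94-fold) were also higher, with stromal sums of 148 to 197 and 142 to 178 CPM. Of 5 adrenal markers Mrap alone was tested and was higher, at 3.21 to 7.0 CPM against 1.4 to 2.29 CPM. No tested oocyte, theca, epithelial, perivascular or erythroid marker was higher past the threshold, nor was one of 5 tested lymphatic markers (Lyve1, Flt4, Pdpn, Ccl21a and Reln). By adjusted p alone 2 of these 5 were higher and none was lower, beside 2448 and 2573 of 13981 over all genes. The sum of the 5 and the untested Mmrn1 was 215 to 316 CPM in transitional and 182 to 234 CPM in Amh-positive cells. Prox1 is a gene of the rule and was not in that list.

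Against Amh-negative cells the leading higher genes beside those already named were Pank1, Prkar2b, Cntnap5a, Rasd1, Tdrd5 and Slc26a7. Pank1, which starts the synthesis of coenzyme A, was at 247, 260, 257 and 279 CPM against 71.9 to 82.5 CPM (3.33-fold, adjusted p = 1.2e-11). Tdrd5, known from the germline piRNA pathway, was at 258, 227, 321 and 366 CPM against 40.7 to 57.7 CPM (5.57-fold) and against 102 to 129 CPM in Amh-positive cells (2.37-fold). Neither overlapped with Amh-negative cells. The leading lower genes included Gadd45b at 11.2, 24.1, 30.2 and 26.9 CPM against 63.8 to 147 CPM (5.20-fold lower, adjusted p = 2.4e-11), the basement membrane collagens Col4a1 (5.90-fold lower) and Col4a2 (4.29-fold lower), the endothelial and immune factor Ets1 (6.97-fold lower), the chloride channel Ano1 (6.99-fold lower) and Atp1b1 (3.62-fold lower). Selenop, Ehd4, Creg1, Cdh2 and Arpc1b were between 2.57-fold and 4.31-fold lower. Of 25 basement membrane genes 13 were lower and none was higher (median -1.01), and 6 of 12 of these calls were lost in thinned cells. The marker sums of the Amh-negative class apply to these values too.

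Within the population, cells without and with Amh UMIs were set side by side. The 159 cells with 0 Amh UMIs, at a median depth of 14025 UMIs, held Akr1c18 at 1069 CPM, Ncam1 at 268 CPM and Kitl at 929 CPM. The 553 cells with at least 1 Amh UMI, at 20673 UMIs, held them at 237, 120 and 712 CPM. Hsd3b1 was at 1575 and 1507 CPM. These are cells pooled over libraries and are given with no test.

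Clustering of the 712 cells gave 8 groups, which are numbered and described without a test because the same genes formed them. Each held cells of all 4 libraries. Cluster 1 (116 cells) was led by Col8a1 at 344 CPM against 124 CPM in the other transitional cells, Sfrp4, 1190002N15Rik and Hsd17b7, and held Kitl at 1197 and Akr1c18 at 823 CPM. Cluster 3 (65 cells) had the most Hsd3b1, at 3516 CPM, with Hsd17b1 at 840 against 260 CPM and Cyp11a1 at 304 CPM, and was led by the kinase Sgk1, Pank1, the haem synthesis gene Alas1 and the electron carrier Fdx1. Cluster 7 (104 cells) was led by the long non-coding RNA Rmst at 305 against 12.8 CPM, Col6a6, Cdkn1c at 164 CPM, Lmcd1 and Maf at 183 CPM, with Ncam1 at 350 and Amh at 51.8 CPM. Pax8 was at 55.8 CPM in cluster 7, where 20.2% of cells had a Pax8 UMI, and at 0 to 2.29 CPM in the other clusters.

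Cluster 6 (85 cells) held replication genes, such as Mcm3 at 192 against 19.9 CPM, Hells and Pclaf. Cluster 8 (33 cells) held Amh at 1180 CPM with Kitl at 372 CPM. Cluster 4 (105 cells) had the highest median depth, 27734 UMIs, and the lowest Kitl and Hsd3b1, at 327 and 612 CPM, with Hbb-bs, Krt79 and Calb1 in the lead. Clusters 2 (99 cells, Apoe, Espn and Ifitm1) and 5 (105 cells, Cnmd, Mybpc3 and Angptl1) lay between. Cluster 5 drew 18 and 14 cells from the wild-type and 34 and 39 from the Chek2-/- libraries, whereas cluster 2 drew 35 and 36 against 17 and 11. With 1 library per condition, library and genotype cannot be told apart.

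**Figure D3:**
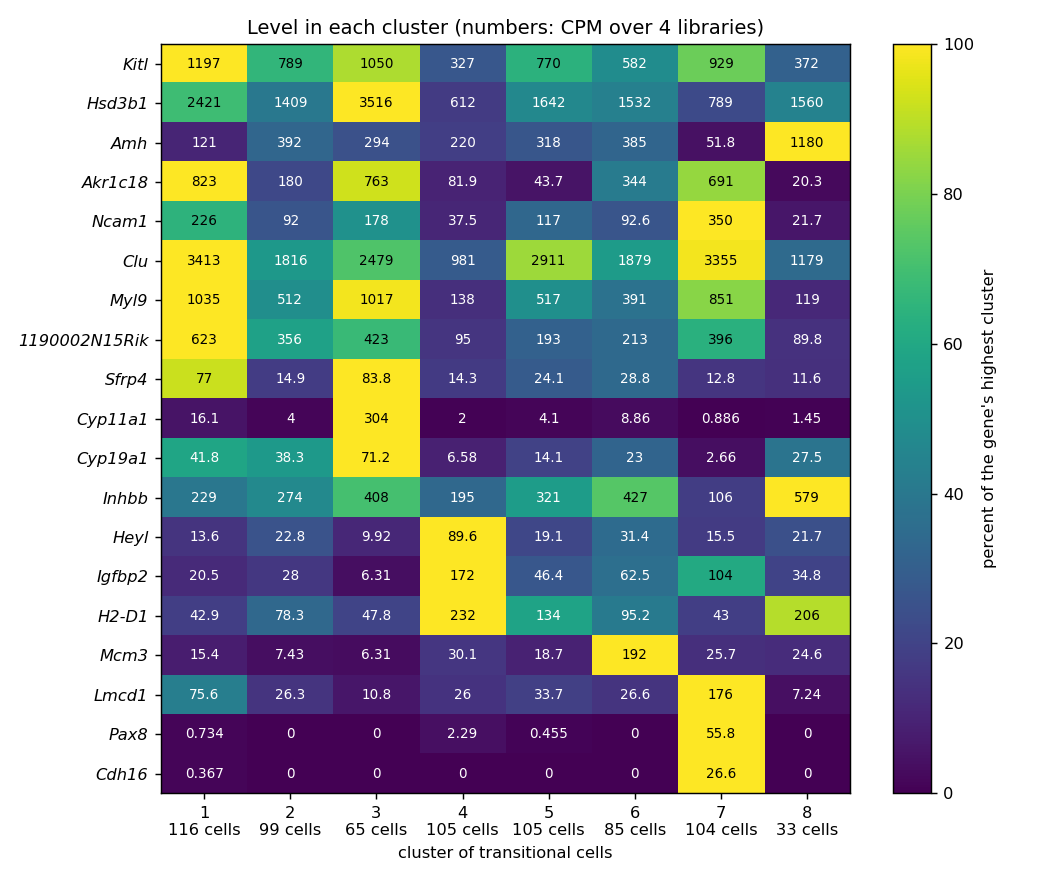
Levels of Kitl, Hsd3b1, Amh, Akr1c18 and other genes in the 8 clusters of transitional cells, with the CPM printed in each cell and the colour giving it as a percent of the highest cluster of the gene. Cluster 3 is highest for Hsd3b1 (3516 CPM), cluster 8 for Amh (1180 CPM) and cluster 7 for Ncam1 (350 CPM), and cluster 4 is lowest for Kitl (327 CPM).

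Transitional cells made up 5.89% (exact binomial 95% limits 5.11 to 6.75%), 5.20% (4.54 to 5.94%), 4.48% (3.82 to 5.21%) and 3.98% (3.38 to 4.65%) of granulosa cells. The ratio of irradiated over non-irradiated shares was 0.883 (95% limits 0.723 to 1.08) in wild-type and 0.889 (0.707 to 1.12) in Chek2-/- ovaries, and both limits included 1. With at least 4 of the 6 genes required, the wild-type ratio was 1.05. Chek2-/- shares were 0.760 times (0.612 to 0.942) the wild-type share without and 0.764 times (0.616 to 0.947) with IR. There was 1 library per condition and no test, and all limits here and below cover counting error only. As a share of non-dividing granulosa cells the values were 8.03, 6.93, 5.95 and 6.14%, and the limits of the irradiated libraries overlapped (6.05 to 7.90 and 5.23 to 7.16%). As a share of all cells the values were 2.00, 2.00, 1.76 and 1.66%.

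IR was compared with sham within transitional cells by the ratio of CPM, with exact 95% limits and no p-value. Where the 2 libraries together held 50 UMIs or more of a gene, 77 of 10273 (0.75%) were at least 2-fold higher and 29 (0.282%) at least 2-fold lower in wild-type cells, and 37 of 9749 (0.38%) and 28 (0.287%) in Chek2-/- cells. By the same limits the shares higher and lower were 2.04 and 0.514% in wild-type and 0.316 and 0.347% in Chek2-/- Amh-positive cells, and 1.57 and 1.08% and 0.52 and 0.13% in Amh-negative cells. Cdkn1a, which encodes the p21 inhibitor of the cell cycle and is a direct p53 target, went from 61 to 501 UMIs in wild-type cells, or 14.0 to 103 CPM, a ratio of 7.38 (5.65 to 9.79). In Chek2-/- cells it went from 23 to 28 UMIs, a ratio of 1.14 (0.631 to 2.06). The wild-type limits lay above those of Chek2-/- cells, although with 1 library each the difference between genotypes was not tested. Ccng1, another p53 target, had ratios of 5.24 (4.11 to 6.75) and 1.29 (0.899 to 1.86).

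The Cdkn1a ratio and the Cdkn1a level in sham cells both differed between classes, and the part of that level in the ratio was not tested. In Amh-positive wild-type cells Cdkn1a went from 1.89 to 73.8 CPM (39.0, limits 30.3 to 51.0) and in Amh-negative cells from 9.50 to 103 CPM (10.9, 8.94 to 13.3). Transitional cells began at 14.0 CPM and reached 103 CPM. The sham level was 4.71 CPM (9 of the 61 UMIs) in cells with at least 4 of the 6 genes and 8.18 CPM with cells of 2 genes included, both below the Amh-negative level. Among transitional cells with at least 4 of the 6 genes the wild-type ratio was 18.6 (9.64 to 41.3), and with cells of 2 genes included 10.3. In Chek2-/- cells with at least 4 genes it was 6.31 (1.87 to 33.2), on 3 and 20 UMIs, so there the limits of the genotypes overlapped, and the Ccng1 ratio in thinned Chek2-/- cells was 4.58 on 1 and 5 UMIs (0.513 to 217). With cells of 2 genes included the Chek2-/- ratios were 1.49 (1.04 to 2.14) for Cdkn1a and 1.45 (1.15 to 1.83) for Ccng1, with limits above 1.

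Of 40 p53 targets with at least 50 UMIs, 17 were at least 2-fold higher and none at least 2-fold lower in irradiated wild-type transitional cells (median log2 ratio 0.73, against 0.01 over all genes), compared with 19 of 46 in Amh-positive (median 0.84) and 17 of 47 in Amh-negative cells (median 0.69). In Chek2-/- transitional cells none of 32 reached 2-fold in either direction (median 0.03). In the other Chek2-/- classes Cdkn1a was at least 2-fold higher in Amh-positive cells (1 of 43), and Cdkn1a and Gdf15 were in Amh-negative cells (2 of 40). The list holds genes that the study picked from these ovaries, so it is not independent evidence of a direction. Bax, the pore-forming apoptosis effector, went from 121 to 310 CPM (2.57, 2.32 to 2.84) in wild-type and from 112 to 139 CPM (1.24, 1.09 to 1.42) in Chek2-/- cells. Phlda3, an inhibitor of AKT, went from 29.6 to 99.7 CPM (3.37, 2.77 to 4.12), with a ratio of 1.09 in Chek2-/- cells. Bbc3, which encodes PUMA, went from 12.2 to 28.6 CPM (2.36, 1.70 to 3.30), with 0.761 in Chek2-/- cells. In each case the limits of the 2 genotypes were apart.

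Further wild-type ratios were 3.26 for the nuclease Aen, 2.95 for the exocyst subunit Exoc4, 4.0 for Dcxr, 5.67 for the epoxide hydrolase Ephx1, 7.06 for Psrc1, 9.52 for the receptor Eda2r (5 to 53 UMIs), 2.22 for Trp53inp1, 2.76 for Sesn2, 2.28 for Polk, 2.58 for Slc19a2 and 3.52 for Ak1. Ano3 went from 1 to 56 UMIs, a ratio of 50.3 with limits of 8.66 to 2021, and from 0 to 1 UMI in Chek2-/- cells. Mdm2, the p53 ubiquitin ligase, had ratios of 1.5 (1.26 to 1.79) and 0.993. Pmaip1, which encodes NOXA, had 2 UMIs in each of the wild-type libraries and could not be compared at this depth.

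Of interferon-stimulated genes in wild-type transitional cells, 10 of 30 were at least 2-fold higher and none lower (median log2 ratio 0.69), against 23 of 38 in Amh-positive (1.64) and 19 of 38 in Amh-negative cells (0.99). Isg15, a ubiquitin-like modifier, went from 1.61 to 23.5 CPM (14.6, 6.87 to 37.2). Rtp4 went from 4.36 to 48.2 CPM (11.1, 6.92 to 18.7) and the chemokine Cxcl10 from 15.1 to 58.3 CPM (3.85, 2.94 to 5.11). In Chek2-/- cells 2 of 21 were 2-fold higher (median 0.02), namely Irf1, from 12.8 to 40.7 CPM (3.17, 2.26 to 4.52), and Cxcl10, from 10.3 to 29.3 CPM (2.85, 1.94 to 4.27). Cxcl10 was thus higher after IR in both genotypes, and Isg15 had 8 and 6 UMIs in Chek2-/- cells.

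**Figure D4:**
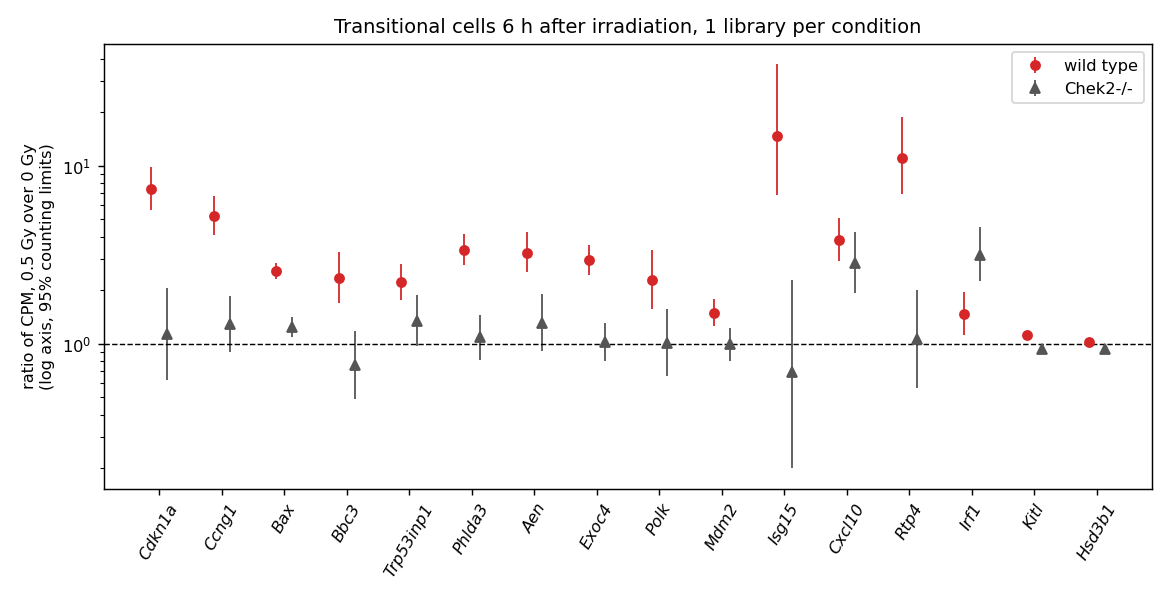
Ratios of irradiated over non-irradiated transitional cells for p53 targets and interferon-stimulated genes in wild-type and Chek2-/- libraries, on a log axis with exact 95% limits. Cdkn1a lies at 7.38 in wild-type and 1.14 in Chek2-/- cells, and Isg15 lies at 14.6 in wild-type cells.

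The ratios of Kitl, Hsd3b1 and the genes of the rule after IR are a description, since these genes chose or named the cells in each library. Kitl had ratios of 1.13 (1.08 to 1.18) in wild-type and 0.932 (0.881 to 0.985) in Chek2-/- cells, and Hsd3b1 1.03 (0.996 to 1.07) and 0.937 (0.903 to 0.973). In wild-type cells the ratios were 1.36 (1.23 to 1.51) for Col8a1, 1.38 (1.23 to 1.54) for Ramp1 and 1.31 (1.14 to 1.51) for Akr1c19, and in Chek2-/- cells 1.10, 0.944 and 0.746 (0.634 to 0.878). Mybpc3 had ratios of 0.852 (0.652 to 1.11) and 0.657 (0.503 to 0.854), and the limits of Tmem171 and Prox1 included 1 in both genotypes. None of 19 steroid genes in wild-type and of 18 in Chek2-/- cells reached 2-fold in either direction (medians 0.11 and -0.12), although Cyp19a1 was at 0.731 (0.566 to 0.943) and 0.503 (0.346 to 0.722). The other lists had at most 2 genes past 2-fold in either genotype.

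The largest wild-type ratios among genes with at least 100 UMIs, where 46 of 8655 (0.531%) were 2-fold higher and 7 (0.0809%) lower, were those of Isg15, Hbb-bt, Rtp4, Gm42047 (9.48) and Cdkn1a. Hbb-bt, a haemoglobin gene, went from 62 to 780 UMIs beside an erythroid sum of 344 and 1454 CPM. The smallest were those of the oocyte genes Dppa3 (0.335) and Ooep (0.380), which the rule caps, and of Sel1l3 (0.424), Jsrp1 (0.456) and Fam78a (0.475). In Chek2-/- cells, where 11 of 8001 (0.137%) were higher and 12 (0.15%) lower, the largest were Egfl7 (3.82), beside an endothelial sum of 24.8 and 71.0 CPM, Irf1, Cxcl10, Bhlhe40 (2.85) and Top2a (2.72), a gene of the rule. The smallest was that of the epithelial Krt19, from 122 to 8 UMIs (0.0611), beside epithelial sums of 529 and 361 CPM, followed by H19 (0.260), Podxl (0.313), Irx3 (0.426) and Hist1h2bc (0.426). The part of those cell types in these ratios was not tested.

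Bulk ovaries, which the rule did not use, were examined for the genes of the rule, Kitl, Hsd3b1 and the leading higher genes, 29 genes in all, over 26790 genes tested in 24 libraries of 17824920 to 32605519 counts. In bulk RNA, fewer cells of a type and less RNA per cell cannot be told apart. None of the 29 passed an adjusted p of 0.05 and 2-fold by edgeR's quasi-likelihood test in any of 4 comparisons, and none did by DESeq2. At an unadjusted p under 0.05 the counts by edgeR were 1 for IR in wild-type ovaries, 0 for IR in Chek2-/- ovaries, 1 for the interaction and 7 for Chek2-/- against wild-type without IR (1, 0, 1 and 8 by DESeq2). The share of all genes at that unadjusted p is not given here, so these counts have no background. At the stricter threshold of adjusted p and 2-fold, the shares of all genes called were 0.859% higher and 0.216% lower for IR in wild-type ovaries. They were 0.00373% and 0% in Chek2-/-, 0.131% and 0.493% for the interaction, and 0.597% and 0.19% for genotype.

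Kitl in bulk ranged from 116 (median 125) to 151 CPM in non-irradiated and from 115 (median 132) to 170 CPM in irradiated wild-type ovaries, and from 158 (median 171) to 268 and from 145 (median 168) to 260 CPM in Chek2-/- ovaries. Without IR the 2 genotypes did not overlap, with a log2 difference of 0.51 ± 0.14 SE (adjusted p = 0.039 by edgeR's quasi-likelihood test), under 2-fold. Hsd3b1 had medians of 329, 319, 323 and 325 CPM, with overlap of all groups (genotype log2 difference 0.04). Col8a1 had medians of 9.66, 9.66, 11.3 and 12.3 CPM and a genotype difference of 0.75 (adjusted p = 0.17), or 0.38 without the libraries numbered 6, and Mybpc3 one of -0.99 (adjusted p = 0.055). With the replicate numbers as a block Mybpc3 passed the threshold, lower in Chek2-/- ovaries. The strain background applies to these genotype differences as to the single cells.

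In the Chek2-/- groups the libraries numbered 6 stood apart from the other 5 in these genes. Kitl was at 268 and 260 CPM in them, against 158 to 184 and 145 to 178 CPM in the others, and Clu at 769 and 847 against 412 to 537 and 357 to 461 CPM. Amh was at 31.2 and 28.1 CPM, against 135 to 173 and 127 to 241 CPM, and a sum of 14 oocyte markers at 3604 and 4181 CPM against 5686 to 6192 and 5402 to 6387 CPM. These 2 libraries were the highest of their group for 12 and 13 of the 29 genes (41.4 and 44.8%), against 27.9 and 24.7% of all genes. They were also the lowest of their group for 8 and 6 of the 29. Nr5a2, for example, was at 136 and 138 CPM, against 217 to 429 and 274 to 402 CPM in the others. Without these 2 libraries, an alternative chosen after the values were seen, the genotype difference of Kitl was 0.37 (adjusted p = 0.0265).

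**Figure D5:**
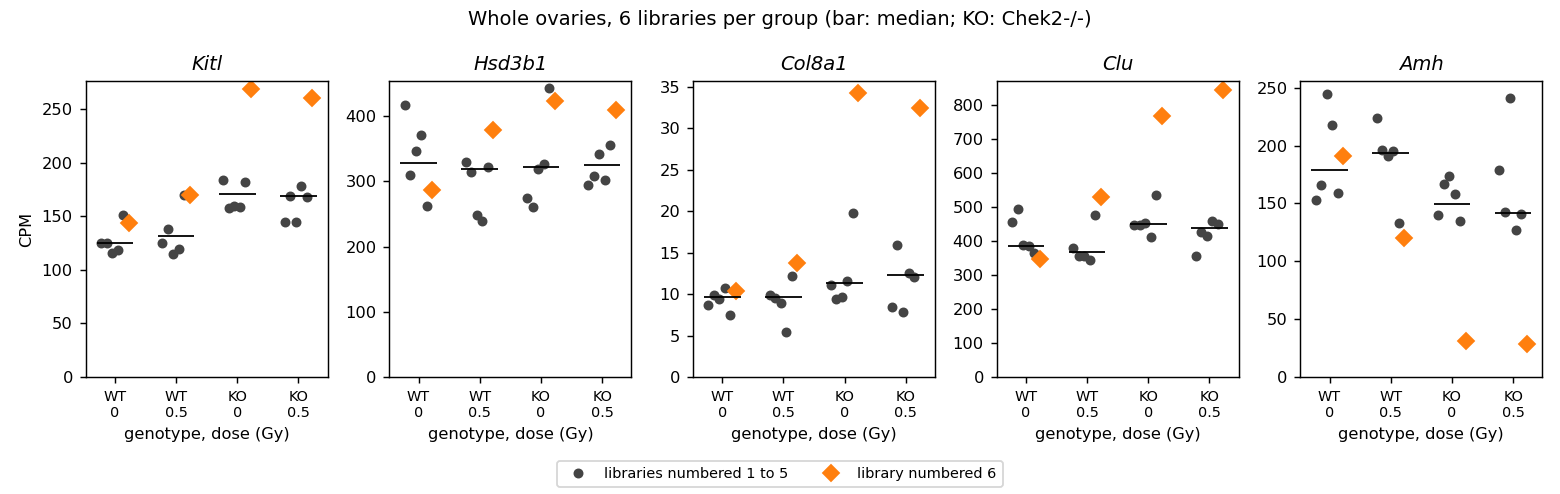
Levels of Kitl, Hsd3b1, Col8a1 and Clu, which were high in transitional cells, and of Amh in 24 bulk ovary libraries by genotype and IR, with 1 point per library and the median of each group. For Kitl the highest points of the Chek2-/- groups, at 268 and 260 CPM, are the libraries numbered 6.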

How the data were processed

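The authors ran Cell Ranger on mm10 at its defaults (their methods name version 4, the matrix headers 3.0.2) and deposited whole UMI counts per gene and barcode, before their filters on cells and doublets. For bulk ovaries the authors used Trim Galore 0.6.5 and Salmon 1.3.0, also at defaults, and deposited estimated counts per gene, which were rounded here. Libraries held 17824920 to 32605519 bulk counts, or 182774110 to 209716655 UMIs over all barcodes.

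UMI counts were summed per class and library and fitted as 12 sums (3 classes of 4 libraries) with the library as a block, after filterByExpr and TMM, by the quasi-likelihood test of edgeR 4.0.16 (R 4.3.3). Genes of the rule, the label markers and Amh were not tested. On simulated counts for the comparison with Amh-positive cells the fit called, by adjusted p alone, 89% of 100 genes changed 2-fold and 99% of 100 changed 2.83-fold. The simulation gave all genes the same spread, held no library effect and no choice of cells by detection, and changed no gene of low expected count. Its shares do not carry over to genes of low level. Bulk genes with at least 10 counts over 24 libraries were fitted with 1 coefficient per group by the same test. Ratios after IR have exact conditional 95% limits. Doublets called by Scrublet (scanpy 1.11.5) were kept. Cells were clustered on 1500 variable genes, 8 principal components and Leiden at a resolution of 0.6.

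The members, the gene lists and the tests were chosen with earlier results of these data known. For each comparison of classes the genes named were the 12 higher and 12 lower past the threshold with the lowest adjusted p and the same direction in 4 libraries, without genes of the rule, Amh, mitochondrial and ribosomal protein genes. List members past the threshold, p53 targets with at least 50 UMIs, the 5 largest and 5 smallest IR ratios among genes with at least 100 UMIs, and in bulk the genes of the rule, Kitl, Hsd3b1 and the leading higher genes were also named, apart from a few that are not reported here. Alternatives were DESeq2 1.42.0, size factors, no filter, no block, leaving out each library, 2 or 4 genes in the rule, cells thinned to 5000 UMIs, no doublet calls, 2 Amh UMIs, another denominator for shares, and in bulk the replicate block.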

Additional observations from a re-analysis of the deposited data

Results flagged for a closer look

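In bulk ovaries, 16 of 116 groups of 6 libraries tested held a library far from the others by Dixon's test, and all 16 were Chek2-/- libraries numbered 6. By chance this test flags about 1 in 20 independent groups. The groups here share libraries, and no share over all genes was computed, so the count has no background. These 2 libraries were the highest of their group for 27.9 and 24.7% of all genes. The highest of the group were Kitl at 268 CPM without and 260 CPM with IR, Clu at 769 and 847 CPM, Ltbp1 at 122 and 131 CPM, Ncam1 at 61.0 and 55.2 CPM and Akr1c19 at 3.50 and 3.26 CPM. With IR only, Col8a1 stood out at 32.4 CPM, Ramp1 at 5.95 CPM, 1190002N15Rik at 204 CPM and Myl9 at 60.5 CPM. Tdrd5 was the lowest of its group, at 89.5 CPM without and 106 CPM with IR. The same 2 libraries had the lowest Amh (31.2 and 28.1 CPM) and oocyte marker sums of 3604 and 4181 CPM. Whether these females differed in age, dissection or tissue was not tested.

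In transitional cells, 7 genes moved in opposite directions after IR in wild-type and Chek2-/- libraries, with limits on different sides of 1. The screen covered lists of 50 p53 targets and 41 interferon genes and a few other genes. No share over all genes was computed, so the count has no background. Genes of the rule and label markers were left out, although the limits of Kitl and Akr1c19 given above also lay on different sides of 1. The ratio of irradiated over non-irradiated was 1.32 in wild-type and 0.876 in Chek2-/- cells for Akr1c18, 1.33 and 0.933 for Bst2, 1.18 and 0.663 for Ddit4, 1.57 and 0.900 for Ifi27, 1.69 and 0.586 for Ifi35, 1.08 and 0.793 for Ifitm1, and 1.73 and 0.602 for Oasl2. The difference between genotypes was not tested, since there was 1 library per condition.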

How the results depend on the processing

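Over 219 differences of named genes between classes, 2451 of 2689 values under 13 alternatives kept their direction and side of the threshold. Of the 219 differences, 118 lost their call with the sign kept under at least 1 alternative. DESeq2 ended 3 calls, median-of-ratios size factors none, a filter of 1 UMI 4, no library block 19, at least 4 of the 6 genes 16, no doublet calls 1, 2 Amh UMIs 9 with 1 more turned in sign, and leaving out 1 library 12 to 17. With at least 2 of the 6 genes 49 calls ended and 2 more turned in sign, and with cells thinned to 5000 UMIs 61 and 15 of 204, all without a call. Thinning changed both the depth and, since the rule was applied after it, the members. Genes lower than in Amh-positive cells numbered 387, and 95 with at least 2 genes (84 of the 387 among them), 623 with at least 4 genes and 568 with a filter of 1 UMI. Against Amh-negative cells 546 higher genes became 288 and 1437 lower genes 544 in thinned cells, with 209 and 382 of the first calls among them. Against Amh-positive cells 534 higher genes became 384 and 387 lower genes 452 in thinned cells, with 244 and 140 of the first calls among them. Leaving out each library in turn gave 486 to 528 higher and 289 to 403 lower genes against Amh-positive cells, and 506 to 546 and 1346 to 1438 against Amh-negative cells.

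Against Amh-positive cells the sign turned in thinned cells for Dkk2 (0.17), Id4 (-0.51), Lama5 (-0.40) and Lgr5 (0.46), with at least 2 genes for Lef1 (0.13) and Lgr5 (0.35), and with 2 Amh UMIs for Lef1 (0.047). Against Amh-negative cells it turned in thinned cells for Bik (0.43), Cdc45 (-1.38), Dyrk3 (-0.44), Hsd11b2 (-0.47), Ihh (-0.94), Inhba (-0.20), Kit (0.73), Lypd6 (0.31), Mcm5 (-0.91), Plk2 (0.44) and Wnt9a (1.14). The cause was not tested.

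The Cdkn1a ratio in wild-type cells was 10.3 with at least 2 and 18.6 with at least 4 genes, and in Chek2-/- cells 6.31 with at least 4 genes. The Ccng1 ratio in thinned Chek2-/- cells was 4.58 on 1 and 5 UMIs (limits 0.513 to 217), and Cdkn1a gave none there, with 0 UMIs in sham cells. In bulk ovaries the replicate block called 1 marker gene, Mybpc3, for Chek2-/- against wild-type without IR, against 0 in the fit without it, and changed no other count of marker genes at 2-fold. By adjusted p alone Mybpc3, Kitl, Inhbb and Rasd1 passed for genotype with the block and by DESeq2, and Ltbp1 and Kitl without the libraries numbered 6. For IR in wild-type ovaries Lrrfip1 passed with the block and by DESeq2, and Tdrd5 without those libraries. The replicate numbers were not taken to pair the samples, since 14 of 36 pairs correlated above 0.1, although 5 of 6 pairs of Chek2-/- libraries did (0.198 to 0.617) and 11 of 24 samples correlated best with their own number, a hint from the data. Over all bulk genes, calls for genotype were 160 higher and 51 lower by edgeR, 51 and 30 by DESeq2, 111 and 60 with the block, and 98 and 53 without the libraries numbered 6. For IR in Chek2-/- ovaries they were 1 and 0 by edgeR and 3 and 6 by DESeq2.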

Other observations

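Cells outside the rule also carried its 6 genes. Among dividing granulosa cells 118 of 873 (13.5%), 111 of 991 (11.2%), 66 of 886 (7.45%) and 130 of 1347 (9.65%) had at least 3 of Col8a1, Akr1c19, Tmem171, Ramp1, Mybpc3 and Prox1 detected, in the order of the libraries given above. Among cells over the stromal limit 35 of 4041, 39 of 4120, 17 of 3792 and 38 of 3626 did, and among cells over the oocyte limit 51 of 155, 12 of 92, 12 of 66 and 24 of 98. These values come from cells that other limits of the rule leave out and are given without a test.

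Within transitional cells H2-D1 was lower the more of the 6 genes were detected, at 135, 116, 65.0 and 34.9 CPM in cells with 3, 4, 5 and 6 genes and at 279 CPM in cells with 2. Hey2 was at 18.4, 12.1, 7.18 and 2.12 CPM in the same cells and at 28.5 CPM with 2 genes. Only 29 cells had 6 genes, and 6.90% of them had a Hey2 UMI. The share of cells with an H2-D1 UMI did not follow its level, at 61.4, 55.9, 57.7 and 69.0% with 3, 4, 5 and 6 genes. Median depths were 17671, 17659, 27199 and 30012 UMIs in cells with 3, 4, 5 and 6 genes and 19825 UMIs in cells with 2, and the part of depth in these orders was not tested.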
